A study of Sus scrofa with 8 samples.

Results

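Immediate early genes (IEGs) are the first genes that a stimulated cell transcribes, and 10 of them (FOS, FOSB, JUNB, EGR1, EGR3, NR4A1, ARC, DUSP1, ATF3 and IER2) were followed here in pig olfactory epithelium (OE) collected 30 min after a nasal spray of the boar pheromone androstenone. They were taken by gene name from the 22516 genes of the deposited tables, and all 10 were found and tested. The tissue came from 4 sows, all 8 months old, in estrus and bred from Landrace boars and Rongchang sows, and the OE of the left and of the right side was sequenced separately. The androstenone treatment group was 2 sows sprayed with Boarmate, a commercial product that mainly contains androstenone, and the control group was 2 sows that were given no spray at all, not even a solvent. Each group thus had 4 libraries from 2 animals, and the sources used here do not say which libraries shared a sow. The libraries were taken as replicates, so that the p-values below measure the spread between libraries, and the treatment cannot be told apart from differences between sows or from the act of spraying.

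IEGs need no new protein for their induction. Calcium, cAMP and growth factor signals reach them through kinase cascades and through transcription factors such as SRF, ELK1 and CREB1 that already sit in the cell, and their transcripts appear within minutes and decay fast. In olfactory neurons odor stimulation opens a cAMP-gated channel and lets calcium in, and FOS and EGR1 are commonly used as marks of recent activity in neurons. IEGs also answer to wounding, stretch, stress and tissue handling in epithelial, connective tissue and immune cells.

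The libraries held 81579983 to 100685797 counts, except for control 1 with 4177968. The paper's sequencing summary lists clean reads for control 1 within the range of the remaining 7 libraries. The reason for its low deposited count is not known, and the deposited counts were used as they are. In control 4 the 10 most abundant genes took 29.4% of the total, and in the remaining 7 libraries their share was 6.57% to 9.02%. The labelled tissue was checked on mature olfactory neuron markers, of which 8 of 10 were matched, and their summed level was 80.2 to 215 TPM (a relative transcript abundance that is scaled for transcript length) in the control group, against 94.8 to 186 TPM in the androstenone treatment group. Most of this sum was STOML3, at 34.9 to 190 TPM, and ANO2, at 3.18 to 50.4 TPM. GNG13, RTP1 and CNGA4 were at most 0.493, 0.038 and 0.699 TPM, and OMP, the defining marker of mature olfactory neurons, matched no identifier. STOML3 was highest in control 3 and androstenone 1 and 2, the libraries with the highest respiratory ciliated cell markers, so the sum does not show by itself how much olfactory epithelium a library held.

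Of the 10 IEGs, 3 were lower in the androstenone treatment group at the cutoff of the study, an unadjusted p below 0.05 with a log2 fold change of at least 1 in size (edgeR, quasi-likelihood test): EGR1, FOS and NR4A1. None was higher. Over all 21318 genes tested, 6.42% passed this cutoff, 4.38% as lower and 2.04% as higher. After Benjamini-Hochberg adjustment none of the 10 passed, with a smallest adjusted p of 0.378, and of all genes tested 0 passed with this tool, while 2415 had an unadjusted p below 0.05. With the same adjustment and fold limit, edgeR's likelihood ratio test gave 197 genes, its exact test 154 and DESeq2 405. The fitted log2 fold change was below 0 for 7 of the 10 IEGs and for 51.8% of all genes. The median was -0.45 over the 10 IEGs and -0.02 over all genes. The 10 IEGs were chosen with earlier results of these data known, so their contrast with all genes is a description only. In bulk tissue fewer expressing cells and less RNA per cell cannot be told apart.

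**Figure D1:**
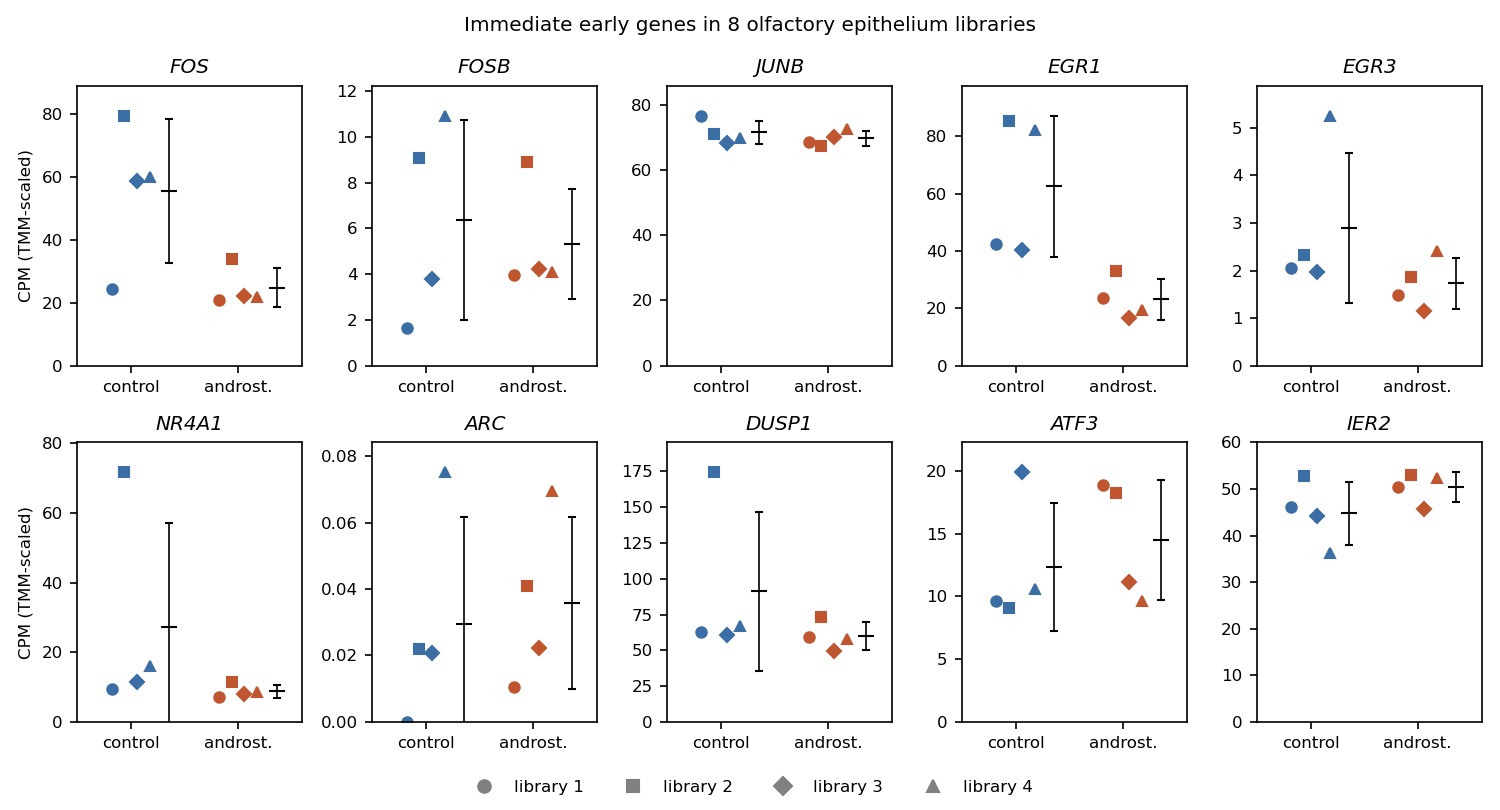
Each panel plots 1 IEG in CPM (counts relative to the TMM-scaled library total, linear axis from 0) in the 4 control libraries (blue) and the 4 androstenone libraries (orange), with a marker shape for each replicate number and the mean ± SD in black, cut at 0. The 4 androstenone libraries of EGR1 lie at 16.7 to 33.0 CPM, below all control libraries, while JUNB stays between 67.4 and 76.6 CPM in all 8.

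The 10 IEGs were ordered by their level per transcript length. In the control group DUSP1 stood highest at 77.7 ± 52.4 TPM (SD, n = 4 libraries here and below), followed by FOS at 44.2 ± 19.6, JUNB at 38.8 ± 5.52, EGR1 at 30.6 ± 11.4 and IER2 at 25.2 ± 6.24 TPM. NR4A1 was at 17.9 ± 20.7 TPM and ATF3 at 9.43 ± 4.28 TPM. FOSB, EGR3 and ARC closed the order at 2.85 ± 1.81, 1.89 ± 0.720 and 0.0403 ± 0.0388 TPM. From DUSP1 down to ATF3, each of these neighbours differed by less than the larger of their SDs, so that their order in the control group is not resolved. In the androstenone treatment group the order began with DUSP1 at 46.3 ± 7.71, JUNB at 34.9 ± 2.17 and IER2 at 25.8 ± 2.13 TPM, followed by FOS at 18.2 ± 4.71 and EGR1 at 10.6 ± 3.25 TPM. ATF3 at 10.1 ± 3.10 TPM was within the spread of EGR1, and NR4A1 at 5.19 ± 1.15, FOSB at 2.28 ± 1.05, EGR3 at 1.10 ± 0.378 and ARC at 0.0506 ± 0.0378 TPM followed. FOS and EGR1 were below IER2 in each androstenone library. In the control libraries the order was mixed, with EGR1 below IER2 in controls 1 and 3 and FOS below IER2 in control 1.

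FOS, FOSB and JUNB encode subunits of the dimeric transcription factor AP-1, in which a Fos protein pairs with a Jun protein. FOS (ENSSSCG00000002383, chromosome 7 of Sscrofa11.1 from 98449508 to 98451971) was at 24.4, 79.3, 58.6 and 59.9 CPM in control 1 to 4 and at 21.0, 34.0, 22.0 and 21.9 CPM in androstenone 1 to 4. Of the controls, control 1 alone lay inside the range of the androstenone libraries, with androstenone 2 above it, so the groups overlapped. Control 1 is based on 119 counts (95% exact Poisson interval 20.3 to 29.3 CPM, counting error only). The group means were 55.6 ± 22.8 and 24.7 ± 6.20 CPM, which is 2.25-fold higher in the control group. For FOS the fitted log2 fold change was -1.17 (standard error, SE, 0.34, unadjusted p = 0.00833, adjusted p = 0.393, edgeR, exact permutation test p = 0.0571). Without control 2 it was -0.95 (unadjusted p = 0.0261, edgeR), which is under the fold limit, and the unadjusted p was below 0.05 with each of the 8 libraries left out in turn.

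FOSB (ENSSSCG00000031616, chromosome 6 from 51836780 to 51844531), a close relative of FOS that is usually induced with it, was at 1.64, 9.10, 3.80 and 10.9 CPM in the control libraries, against 3.98, 8.90, 4.23 and 4.10 CPM in the androstenone libraries. High libraries occurred in both groups, and the groups overlapped throughout. Its fitted log2 fold change was -0.29, with a 95% interval from -1.56 to 0.98 (adjusted p = 0.846, edgeR), which is too wide to exclude a change of the size seen for FOS. Without control 4 the sign turned, to 0.09.

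JUNB (ENSSSCG00000013735, chromosome 2 from 66214086 to 66219435) was the steadiest of the 10. It was at 76.6, 71.2, 68.5 and 70.001 CPM in the control libraries, against 68.6, 67.4, 70.3 and 72.7 CPM in the androstenone libraries. The whole set of 8 libraries, with the low-count control 1 included, spanned less than 10 CPM after TMM scaling. In TPM, JUNB ran from 31.2 in control 4 to 44.1 in control 1. The difference on the log2 scale was -0.04 with a 95% interval from -0.32 to 0.24 (adjusted p = 0.92, edgeR), so that a change of 1 on the log2 scale lies outside the interval.

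ATF3 (ENSSSCG00000015595, chromosome 9 from 130772259 to 130829678), a stress-induced factor of the ATF and CREB family that can also pair with Jun proteins, was at 9.65, 9.09, 19.9 and 10.6 CPM in the control libraries. In the androstenone libraries it was at 18.9, 18.3, 11.2 and 9.65 CPM. Control 3, androstenone 1 and androstenone 2 were high and the other 5 libraries were between 9.09 and 11.2 CPM. The log2 fold change was 0.23 (95% interval -0.55 to 1.01, adjusted p = 0.794, edgeR). The same 3 libraries had the highest summed level of 9 respiratory ciliated cell markers, 1113 to 1503 TPM against 256 to 707 TPM in the other 5, and the part of these cells in the ATF3 level was not tested.

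EGR1 and EGR3 encode zinc finger transcription factors that bind GC-rich promoters and follow MAP kinase activity. EGR1 (ENSSSCG00000014336, chromosome 2 from 140440829 to 140445302) was at 42.5, 85.6, 40.3 and 82.1 CPM in the control libraries, against 23.6, 33.0, 16.7 and 19.5 CPM in the androstenone libraries. It was the only one of the 10 whose groups did not overlap, which 2.64% of all genes showed in this direction and 6.53% in either. The means were 62.6 ± 24.5 and 23.2 ± 7.14 CPM, 2.70-fold higher in the control group. Its fitted log2 fold change was -1.43 (SE 0.33, 95% interval -2.19 to -0.68, unadjusted p = 0.00221, adjusted p = 0.378, edgeR). The exact permutation test gave p = 0.0286, the smallest that 4 libraries against 4 allow. With the likelihood ratio test the adjusted p was 0.0247, with edgeR's exact test 0.0309 and with DESeq2 0.00768, and over all alternatives it ranged from 0.00768 to 0.893.

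EGR3 (ENSSSCG00000009630, chromosome 14 from 6943184 to 6948507), which the same signals induce, was at 2.05, 2.32, 1.97 and 5.25 CPM in the control libraries, against 1.48, 1.87, 1.16 and 2.42 CPM in the androstenone libraries. Of the androstenone libraries, androstenone 4 lay above 3 of the 4 controls, and 3 lay below all controls. The difference on the log2 scale was -0.76 (95% interval -1.70 to 0.17, unadjusted p = 0.0964, adjusted p = 0.499, edgeR) and -0.30 without control 4, the highest library. Control 1 is based on 10 counts (95% exact Poisson interval 0.985 to 3.78 CPM).

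NR4A1 (ENSSSCG00000031321, chromosome 5 from 17403088 to 17407918, listed as a pseudogene in the RefSeq annotation) encodes an orphan nuclear receptor that responds to cAMP and calcium. It was at 9.45, 71.6, 11.4 and 16.1 CPM in the control libraries, against 7.03, 11.3, 8.13 and 8.73 CPM in the androstenone libraries. Control 2 was more than 4 times as high as any other library, and the groups overlapped through control 1 and androstenone 2. The log2 fold change was -1.63 (SE 0.64, unadjusted p = 0.0325, adjusted p = 0.418, edgeR). Without control 2 it was -0.49 (unadjusted p = 0.113, edgeR). The unadjusted p was also above 0.05 without androstenone 1 (0.0737), androstenone 3 (0.068) or androstenone 4 (0.0646, edgeR), so that 4 of the 8 libraries were each needed for the call.

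DUSP1 (ENSSSCG00000016991, chromosome 16 from 51457924 to 51461095), a phosphatase that switches MAP kinases off again, had the highest TPM of the 10. It was at 62.7, 174 (174.5 before rounding), 60.8 and 67.0 CPM in the control libraries, against 59.4, 73.1, 49.7 and 58.2 CPM in the androstenone libraries. Again control 2 stood apart, and the other 7 libraries lay close together in both groups. Its fitted log2 fold change was -0.60 (95% interval -1.43 to 0.23, adjusted p = 0.537, edgeR) and -0.08 without control 2.

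IER2 (ENSSSCG00000013753, chromosome 2 from 65909638 to 65912491), a nuclear protein induced by growth factors, was at 46.0, 52.7, 44.1 and 36.2 CPM in the control libraries, against 50.4, 53.0, 45.8 and 52.2 CPM in the androstenone libraries. The groups overlapped, and control 4 was the lowest library. The difference on the log2 scale was 0.17 with a 95% interval from -0.18 to 0.52 (adjusted p = 0.67, edgeR), so that a change of 1 in either direction lies outside the interval.

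ARC (ENSSSCG00000038965, chromosome 4 from 1517986 to 1521403), a synaptic protein that active neurons of the brain transcribe strongly, was close to the limit of detection. Its rounded counts were 0, 2, 2 and 5 in the control libraries, against 1, 4, 2 and 7 in the androstenone libraries. The 0 of control 1 allows up to 0.616 CPM (3 counts of its TMM-scaled total), far above the 0.0105 to 0.0752 CPM of the other libraries. For the 14 summed androstenone counts against 9 control counts, the ratio per count sequenced was 1.14, with a 95% exact interval from 0.459 to 2.98 that covers counting error only. No difference was detected, changes within this interval could not be resolved at these counts, and the sign of the fitted value changed with the processing.

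**Figure D2:**
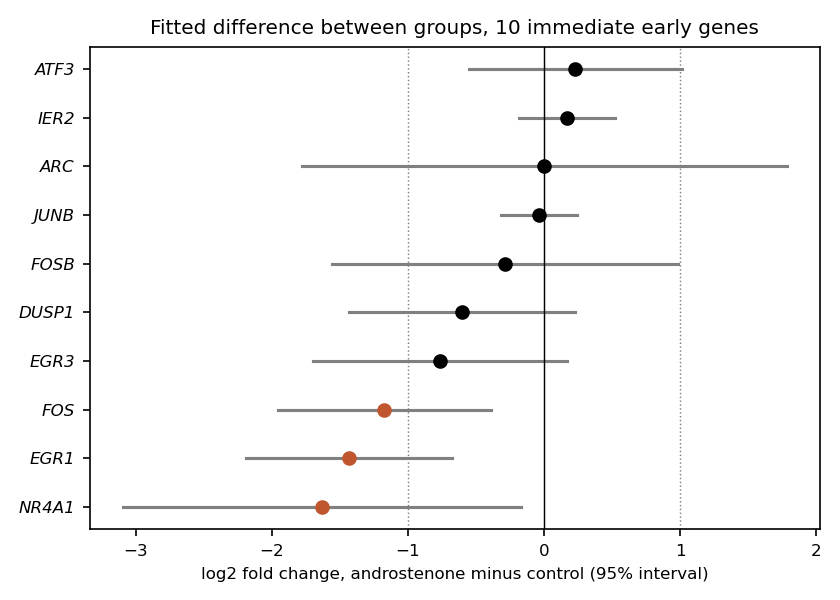
The fitted log2 fold change of each IEG (androstenone minus control, points) is plotted with its 95% interval (lines); orange points passed the unadjusted cutoff and dotted lines mark a change of 1. The intervals of EGR1, FOS and NR4A1 lie below 0, those of JUNB and IER2 lie between the dotted lines, and the interval of ARC runs from -1.78 to 1.78.

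Members of the same gene families were set beside the 10 IEGs in TPM, a comparison chosen after the values were seen and given without a test. EGR4 and JUND matched no identifier and are not in these sums. The Egr family (EGR1, EGR2 and EGR3) summed to 24.2 to 52.3 TPM in the control libraries, against 9.82 to 19.3 TPM in the androstenone libraries. EGR1 made up 84.4% ± 3.74 of this sum in the control group, against 73.3% ± 8.33 in the androstenone treatment group. In the Fos family (FOS, FOSB, FOSL1 and FOSL2) the sum was 46.0 to 113 TPM in the control libraries, against 35.8 to 47.0 TPM in the androstenone libraries, and FOSL2, not FOS, was the largest member in 5 of the 8 libraries (controls 1 and 4 and androstenone 1, 3 and 4). FOSL2 alone took 61.0% of the Fos sum in control 4. In the Jun family JUN and JUNB together were at 109 to 149 TPM in the control libraries, against 87.8 to 91.8 TPM in the androstenone libraries. JUN held the larger part in every library. In the Nr4a family the sums overlapped, at 15.7 to 60.9 TPM and 10.1 to 21.7 TPM, and NR4A3 made up 2.39% to 8.49% of the sum in the control libraries, against 8.74% to 20.5% in the androstenone libraries.

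**Figure D3:**
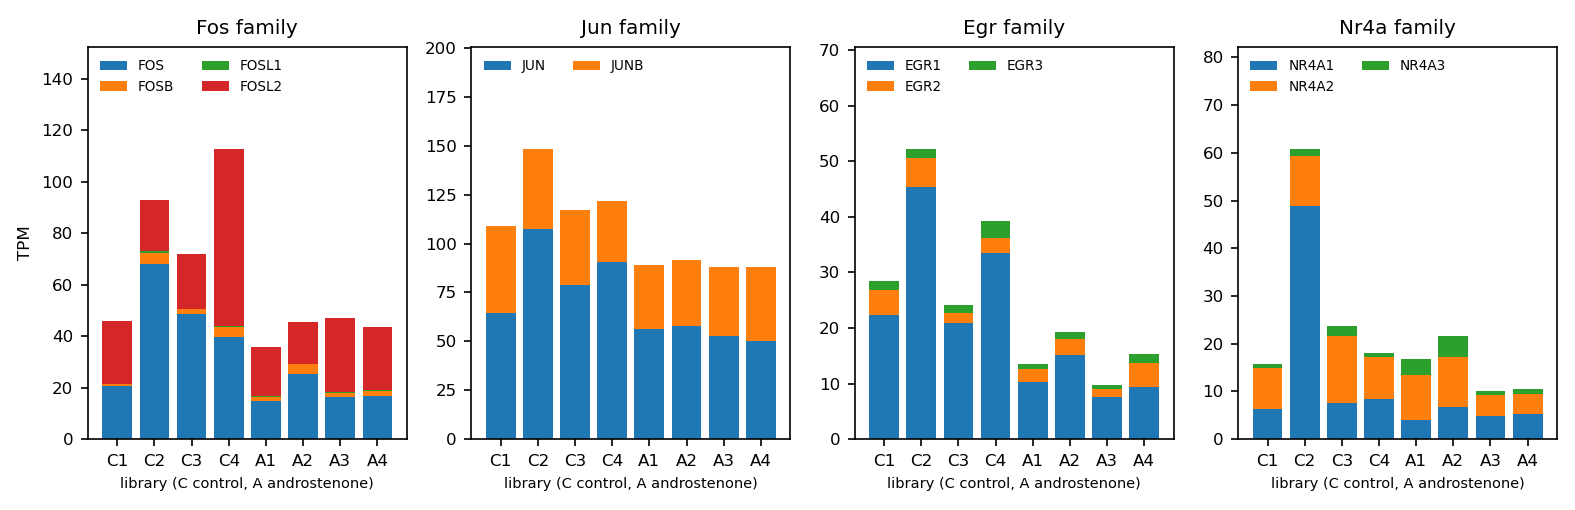
Stacked bars give the TPM of each member of the Fos, Jun, Egr and Nr4a families (linear axes from 0) in control 1 to 4 (C1 to C4) and androstenone 1 to 4 (A1 to A4). In the Egr panel all control bars, at 24.2 to 52.3 TPM, stand above all androstenone bars, at 9.82 to 19.3 TPM, and in the Nr4a panel control 2 stands alone at 60.9 TPM.

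Ratios within a library do not depend on how libraries are scaled against each other, so 4 ratios between the 10 IEGs, chosen after their values were seen, are given on the log2 scale as a description, with no test. There were 0.924, 1.62, 0.915 and 2.27 EGR1 counts per IER2 count in control 1 to 4, and 0.364 to 0.624 in the androstenone libraries. The log2 difference was -1.57, without overlap of the groups. FOS counts per FOSB count were 5.49 to 15.4 in the control libraries, against 3.82 to 5.34 in the androstenone libraries, a log2 difference of -1.07 with no overlap. FOS counts per JUNB count were 0.319 in control 1 and 0.855 to 1.11 in the other controls, and 0.301 to 0.504 in the androstenone libraries (log2 difference -1.04, with overlap through control 1). For EGR1 per EGR3 the log2 difference was -0.73 and the groups overlapped.

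The 10 IEGs did not vary as a single unit over the libraries. Across the 45 pairs, Pearson's r of log2 CPM over the 8 libraries had a median of 0.09 and ran from -0.76 to 0.96, with 12 pairs over 0.5 and 17 below 0. The 8 libraries share sows and differ in total counts, so these values are a description. NR4A1 and DUSP1 were the closest pair (r = 0.96, and 0.96 as deviations from the group means), through their joint peak in control 2. FOS and EGR1 followed (r = 0.87, and 0.68 as deviations from the group means), then FOS and NR4A1 (0.81) and EGR1 and NR4A1 (0.78). FOS and FOSB were at 0.61 over all libraries and at 0.90 as deviations from the group means. Control 1 was the lowest control in both and androstenone 2 the highest androstenone library in both. JUNB and ATF3 ran most strongly against each other (-0.76). By library, control 2 held the highest CPM of 4 of the 10 IEGs (FOS, EGR1, NR4A1 and DUSP1) and control 4 of 3 (FOSB, EGR3 and ARC). Androstenone 3 held the lowest of 3 (EGR1, EGR3 and DUSP1). Control 4 had the lowest TMM factor, 0.687, which raises its CPM. In TPM, FOSB was highest in control 2 (4.54, with control 4 at 4.20). ARC was highest in androstenone 4 in TPM (0.101, with control 4 at 0.0932).

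**Figure D4:**
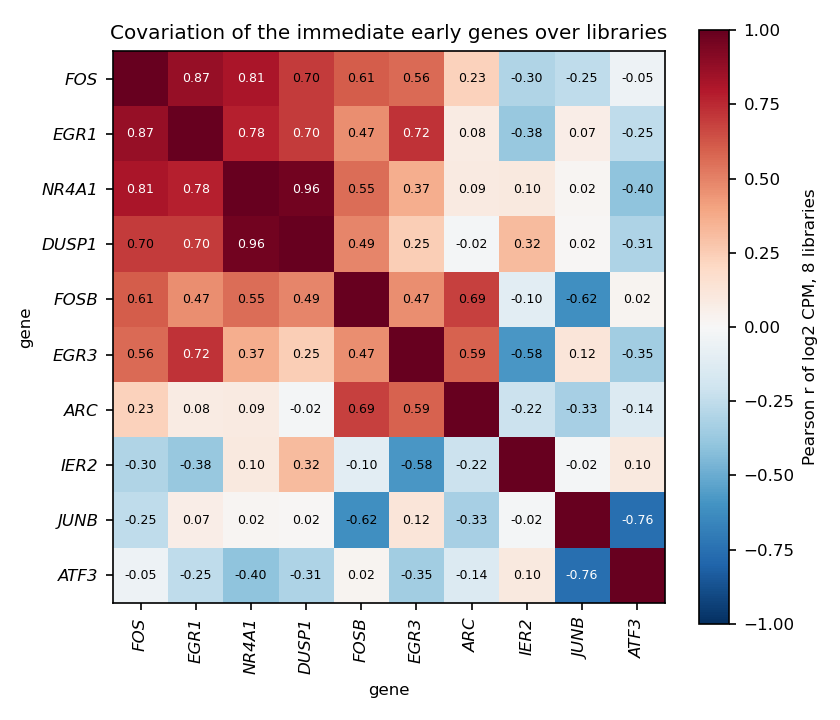
Each cell gives Pearson's r between the log2 CPM of a pair of IEGs over the 8 libraries, from -1 (blue) to 1 (red). FOS, EGR1, NR4A1 and DUSP1 form a block with r of 0.70 to 0.96, while JUNB, IER2 and ATF3 lie outside it.

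Of the 18360 genes that passed edgeR's expression filter, FRMPD3 (r = 0.93), DRP2, LIPN, KRT28, GPD1 and GP6 (r = 0.89) followed the mean standardized level of the 10 IEGs most closely over the 8 libraries, among genes with a symbol on no list used here. They were picked as the highest r, so high values follow from the choice, and no baseline was computed. Without control 1 their r was 0.88 to 0.96, over 7 of the same libraries used to pick them. In control 1 all but GPD1 (65 counts) rested on 0 to 4 counts. FRMPD3 was at 6.65 CPM in control 2 and 0.81 to 2.15 CPM in the other 7 libraries. Most of these genes were rare, with means of 0.464 ± 0.381 CPM for GP6 and 0.651 ± 0.838 CPM for DRP2 in the control group, while GPD1 was at 18.4 ± 4.14 CPM.

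Cell type markers moved with the IEGs in part, and their part in the result was not tested. All 6 osteoblast markers (IBSP, SP7, BGLAP, ALPL, DMP1 and RUNX2) passed the cutoff as lower in the androstenone treatment group. Of all genes tested, 4.38% passed as lower and 2.04% as higher. The summed level of the osteoblast markers was 16248 TPM in control 4 and 306, 379 and 369 TPM in controls 1 to 3. The androstenone libraries were at 74.2 to 514 TPM, and androstenone 2, the highest of them, lay above controls 1 to 3. Of 3 chondrocyte markers, ACAN and MATN1 passed as lower and COL2A1, the defining collagen of cartilage, was at 0.332 to 1.78 TPM in all libraries. Their sum was 4.33 to 190 TPM in the control libraries, against 1.40 to 4.56 TPM in the androstenone libraries. It was 102 and 190 TPM in controls 2 and 4, which also had the highest EGR1. Nearly all of the sum in these 2 libraries was ACAN, at 99.7 and 189 TPM, and MATN1 was at most 0.889 TPM in all libraries. The chondrocyte sum thus follows mainly 1 gene there. Of 4 matched neutrophil markers, S100A8, S100A12 and CSF3R passed as higher, with sums of 49.6 to 333 TPM in the control libraries, against 554 to 1315 TPM in the androstenone libraries, and MPO was at most 0.174 TPM. Mature olfactory neuron markers overlapped between the groups, and 0 of the 8 passed the cutoff. Of the other lists, COL1A1, a collagen of fibroblasts and bone, passed as lower (log2 fold change -4.36), as did GAP43 of immature olfactory neurons (-1.05), while LYZ, the lysozyme of nasal glands, passed as higher (1.36). The 6 fibroblast and smooth muscle markers summed to 1339 to 48631 TPM in the control libraries, against 466 to 3088 TPM in the androstenone libraries. Controls 1 and 3, at 2833 and 1339 TPM, lay among the androstenone libraries. In control 4, the highest, most of the sum was COL1A1, at 32876 TPM. COL1A1 alone of the 6 passed the cutoff, and ACTA2, MYH11 and PDGFRB overlapped between the groups. Pearson's r of the log2 sum to EGR1 was taken over the 8 libraries, which share sows. It was 0.93 for chondrocyte, 0.77 for osteoblast, 0.68 for fibroblast and smooth muscle and -0.83 for neutrophil markers. These r include the difference between the groups. Among androstenone libraries, androstenone 2 was highest and androstenone 3 lowest in neutrophil sum (1315 and 554 TPM) and EGR1 (33.0 and 16.7 CPM). The controls ran the other way, with control 2 lowest in neutrophil sum (49.6 TPM) and highest in EGR1 (85.6 CPM). Without controls 1 and 4 together, a setting chosen after seeing the data because they had the fewest counts and the most counts in few genes, the log2 fold changes of EGR1, FOS and NR4A1 were -1.47, -1.52 and -2.27. These rest on controls 2 and 3 alone, and control 2 held the highest value of all 3 genes.

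**Figure D5:**
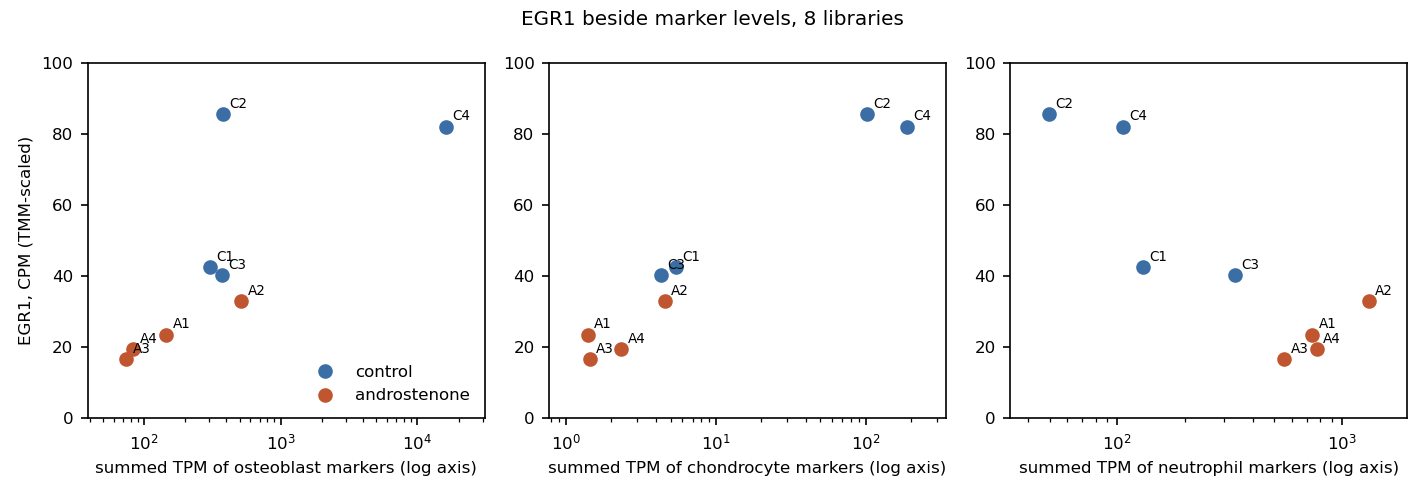
EGR1 in CPM (linear axis from 0) is plotted against the summed TPM of osteoblast, chondrocyte and neutrophil markers (log axes) in the 4 control libraries (C1 to C4, blue) and the 4 androstenone libraries (A1 to A4, orange). Controls 2 and 4, at 85.6 and 82.1 CPM of EGR1, have the highest chondrocyte sums, which in them are nearly all ACAN. The 4 androstenone libraries lie to the right of all controls in the neutrophil panel.

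A wider list of 54 other IEGs, of which 52 were matched and tested, gave 1 gene past the cutoff, a share below the 6.42% of all genes. It was CCN1, a secreted matrix protein induced by SRF, at 19.1, 45.2, 4.05 and 23.3 CPM in the control libraries, against 3.29, 3.01, 10.3 and 11.7 CPM in the androstenone libraries (log2 fold change -1.70, standard error 0.73, adjusted p = 0.438, edgeR). The groups overlapped through control 3, and the call was kept only without control 3 or androstenone 4 when libraries were left out in turn. The median log2 fold change was -0.12 over the 52 genes, -0.23 over the 18 transcription factors among them and -0.04 over the 34 effectors and feedback genes. With no fold limit, 3 of the 52 were lower and 1 higher at an unadjusted p below 0.05, against 6.24% and 5.09% of all genes.

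JUN, the main partner of FOS, was at 99.8 ± 25.8 CPM in the control group, against 68.0 ± 6.13 CPM in the androstenone treatment group (log2 fold change -0.56, standard error 0.21, unadjusted p = 0.0263, edgeR). Control 1 at 70.3 CPM lay among the androstenone libraries, at 60.0 to 73.4 CPM. DUSP6, a feedback phosphatase induced by growth factor signals, was at 55.8 ± 15.1 and 30.7 ± 11.9 CPM (log2 fold change -0.86, standard error 0.32, unadjusted p = 0.0254, edgeR), and it passed the fold limit without control 3, androstenone 3 or androstenone 4 (-1.002, -1.01 and -1.06). CSRNP1, a nuclear factor named after its cysteine- and serine-rich sequence, went the other way at 18.1 ± 2.63 and 24.9 ± 1.67 CPM, with no overlap between the groups (log2 fold change 0.46, standard error 0.16, unadjusted p = 0.0222, edgeR). Of all genes, 3.89% showed no overlap in this direction. The adjusted p of JUN, DUSP6 and CSRNP1 was 0.416 each (edgeR).

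The kinases and factors that act upstream of the IEGs showed no call. Of 24 matched genes, 0 passed the cutoff and 0 had an unadjusted p below 0.05, against 6.42% and 11.3% of all genes (edgeR). DESeq2, limma voom and both other edgeR tests also called 0, and the median log2 fold change was -0.02 (edgeR). For 1 of the 24, RPS6KA1, the groups did not overlap, at 78.3 ± 17.6 CPM in the control group, against 94.4 ± 4.32 CPM under androstenone. Of all genes, 3.89% showed no overlap in this direction. Only transcript levels were measured, not the activity of these proteins. The smallest p belonged to ATF1, a CREB family factor, at 39.6 ± 3.59 CPM in the control group, against 47.9 ± 6.59 CPM in the androstenone treatment group (log2 fold change 0.27, unadjusted p = 0.114, edgeR). MAP2K1, a kinase of the growth factor signalling cascade, came next at 49.4 ± 28.7 and 33.1 ± 5.33 CPM, with control 4 at 92.3 CPM.

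Genes of heat shock, hypoxia and glucocorticoid response, which bear on tissue handling and slaughter stress, also showed no call. Of 17 matched genes, 0 passed the cutoff and 0 had an unadjusted p below 0.05, against 6.42% and 11.3% of all genes (edgeR). The other 4 count tools also called 0, and the median log2 fold change was -0.03 (edgeR). The heat shock genes HSPA1A and HSPA1B and the hypoxia gene BNIP3 matched no identifier, so the list does not settle whether handling differed. SLC2A1, the glucose transporter of the hypoxia list, had the smallest p, at 110 ± 58.5 and 180 ± 28.1 CPM (log2 fold change 0.71, unadjusted p = 0.071, edgeR). Its control 3, at 195 CPM, lay among the androstenone libraries, at 141 to 208 CPM, and the other controls at 63.5 to 97.6 CPM, and without control 3 it passed the cutoff (log2 fold change 1.14, unadjusted p = 0.000969, edgeR). PDK1, also of the hypoxia list, was at 61.4 ± 44.6 and 36.6 ± 9.55 CPM, and the chaperone HSPH1 at 125 ± 68.9 and 86.8 ± 46.7 CPM.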

How the data were processed

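RNA-seq was made from 8 OE libraries of 4 sows. Reads were filtered by the authors (fastp 0.23.1) and pseudoaligned to Sscrofa11.1 transcripts from Ensembl release 108 (Kallisto 0.48.0). For each of 22516 genes the authors deposited its estimated count and its TPM, a level corrected for transcript length and depth. The summing of transcripts to genes is not described in those sources, and the library kit does not mark the strand, so overlapping genes cannot be told apart.

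Estimated counts were rounded. The 21318 genes with at least 1 count were normalized by TMM and compared by the quasi-likelihood test of edgeR 4.0.16 with a single condition term (R 4.3.3), and standard errors were derived from the F statistic. Of the other genes, 1157 were at 0 in all libraries. CPM were taken relative to TMM-scaled library totals, and log2 CPM used a prior count of 2. Names came from a table that matched 15527 identifiers, and positions from RefSeq on Sscrofa11.1. Single values were compared with two-sided exact permutation tests (70 assignments, scipy 1.17.1, Python 3.11.15) on log2 CPM. Intervals are at 95%, the floor is 3 counts of a TMM-scaled library. Control 1, with 4177968 counts, has the widest counting error.

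Besides the 10 IEGs, the text names the 4, 2 and 3 genes of smallest p at 0.5 CPM or more among the other IEGs, the upstream genes and the stress genes, and the 6 genes most like the IEGs. The members and lists were chosen with earlier results of these data known. JUND, EGR4, CREM, HSPA1A, HSPA1B and BNIP3 matched no identifier. Alternatives were edgeR's likelihood ratio and exact tests, DESeq2 1.42.0, limma 3.58.1 (voom, and log2(TPM + 0.1) or log2(TPM + 1)), RLE, library totals, filterByExpr, at least 10 counts, the replicate number as a block, p below 0.01, no fold limit, and each library left out. The count tests were tested on simulated data with 200 changed genes.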

Additional observations from a re-analysis of the deposited data

Results flagged for a closer look

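In 20 groups of 4 libraries (10 IEGs in each group), 1 library stood apart from the other 3 by Dixon's criterion in 6. Chance gives about 1 in 20 if values are normally distributed, which was not checked for these linear CPM. In all 6 the library that stood apart was the highest of its group. The IEGs share libraries, so these are not 6 independent events. In control 2, NR4A1 was at 71.6 CPM and DUSP1 at 174 CPM (174.5 before rounding), with a gap to the next control of 89.2% and 94.5% of the group's range. In androstenone 2, FOS was at 34.0 CPM and FOSB at 8.90 CPM, with gaps of 92.0% and 94.9% of the range. EGR3 was at 5.25 CPM in control 4, and ATF3 at 19.9 CPM in control 3.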

How the results depend on the processing

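EGR1 kept its direction and passed the cutoff under all 20 alternatives run on it, FOS under 19. Of 3 IEGs called, 2 were called with limma voom, both TPM settings, the replicate block and p below 0.01, and 1 to 3 with a library left out, the lowest without control 2. The median over the 10 IEGs ranged from -0.70 to -0.16 with a library left out. The sign turned for FOSB without control 4 (0.093; -0.68 to 0.093 with a library left out), for ATF3 without controls 1 and 4 (-0.042), and for ARC with DESeq2 (-0.10), limma voom (-0.32), RLE (-0.018), at least 10 counts (-0.00039) and a library left out (-0.52 to 0.79). The cause was not tested.

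Of all genes, 1368 were called, against 1978 with the likelihood ratio test, 1594 with the exact test and 1489 with DESeq2. Limma voom called 978, RLE 1387, library totals 1217 and filterByExpr 1085. Calls numbered 718 with log2(TPM + 0.1), 319 with log2(TPM + 1) and 583 with the replicate block. They numbered 881 without controls 1 and 4, 368 at p below 0.01 and 2415 with no fold limit. With a library left out they ran from 867 (without androstenone 1) to 2414 (without control 3). After adjustment the 0 became 197 (likelihood ratio test), 154 (exact test), 405 (DESeq2), 1 (library totals) and 2 (log2(TPM + 0.1)). Of the other IEGs 1 was called, against 2 with those 3 tests, RLE, filterByExpr and log2(TPM + 0.1), 0 with limma voom, library totals, the block, without controls 1 and 4 and at p below 0.01, 4 with no fold limit, and 0 to 5 with a library left out. Stress genes gave 0 to 1 with a library left out. Same-numbered libraries deviated from their group means with r of -0.04, -0.50, -0.60 and 0.17, so the numbers were not taken as pairs.

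Low counts limit ARC in all libraries and FOSB and EGR3 in control 1, where they rest on 8 and 10 counts.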
